A study of Saccharomyces cerevisiae with 15 samples.

Results

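The 292 array probes described here are the transfer RNA (tRNA) genes of budding yeast, Saccharomyces cerevisiae, and the regions beside them, out of 6803 probes on the array. They were chosen by name alone: a name that starts with t, an amino acid letter and an anticodon in brackets is a tRNA gene, and one that starts with it is a region beside such a gene, called a flank here. There were 42 gene probes and 250 flanks, from 252 tRNA gene names on 16 chromosomes, while RefSeq's table of the assembly R64 lists 275 nuclear tRNA genes. The 42 genes cover 20 amino acids and 38 anticodons, so that most anticodons had 1 gene probe. In a name such as tR(CCG)L, R is arginine, CCG is the anticodon and L is chromosome XII. A number after the chromosome letter tells copies on the same chromosome apart.

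The study compared chromatin bound by Fhl1 or Ifh1, with and without rapamycin, on 15 two-colour arrays (ChIP-chip). All strains were W303, in log phase in YPD at 30 °C. In the Fhl1 groups the strain carried FHL1-13myc-HIS3MX6, with 3 untreated arrays and 5 arrays from cells given rapamycin at 200 ng/mL. In the Ifh1 groups it carried IFH1-13myc-TRP1MX6, with 4 untreated arrays and 3 with the same dose of rapamycin. The other channel of every array held an anti-myc precipitate of the untagged W303 strain, so a value sets a tagged against an untagged strain. Whether that reference was itself treated on the rapamycin arrays, and how long the drug was given, is not stated in the labels. How often a tagged strain was made anew, and whether arrays share a reference preparation, are not given either.

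tRNA genes are transcribed by RNA polymerase III. Their promoter lies inside the gene, where TFIIIC binds and brings TFIIIB, which in turn recruits the polymerase. TOR signalling drives this transcription in growing cells, and rapamycin, which inhibits TOR, represses it through Maf1. FHL1 was first isolated as a gene whose extra copies suppress a defect in RNA polymerase III, and Fhl1 with Ifh1 is now known for binding the promoters of ribosomal protein (RP) genes, which RNA polymerase II transcribes. The question put to the tRNA probes is whether either protein was also enriched at genes of the other transcription system.

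Values are log2 ratios after each array was centred on its median. The deposited direction of the ratio is not settled: RP promoters lay above the array median on some arrays of a group and below it on others, and the labels mention a dye swap per condition without naming the array. Each array was therefore turned so that the median of the 71 probes upstream of large-subunit RP genes was positive, which turned 7 arrays. No tRNA probe took part in this. The 3 Ifh1 rapamycin arrays had no RP shift to turn them by (large-subunit medians of 0.03, -0.06 and -0.06), kept their deposited sign, and have no settled direction. Outside the RP and tRNA probes, the arrays shared little: over 6391 probes the correlation between pairs of arrays ran from -0.26 to 0.38 with deposited signs and from -0.38 to 0.34 after turning. Replicates were called biological in the labels, so p-values measure the spread between these preparations, and the number of arrays limits the precision.

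tRNA genes lay close to the array median on most arrays and clearly above it on 3. In untreated cells with tagged Fhl1, the median of the 42 gene probes was 0.25, -0.02 and -0.04 on replicates 1 to 3. With Fhl1 and rapamycin it was 0.54, 0.15, 0.01, 0.07 and 0.09 on replicates 1 to 5. With Ifh1 in untreated cells it was 0.48, 0.19, 0.10 and -0.002 on replicates 1 to 4. On the Ifh1 rapamycin arrays, with deposited signs, it was 0.12, 0.06 and 0.05. Replicate 1 was thus the highest array of all 4 groups, and on Fhl1 rapamycin replicate 1 the median gene stood at a 1.45-fold ratio. On the same arrays 34, 38 and 39 of the 42 gene probes lay above 0. Fhl1 rapamycin replicate 1 and Ifh1 untreated replicate 1 also formed a cluster of their own when arrays were grouped by the other probes with deposited signs. Arrays of a cluster need not be alike after turning. Fhl1 rapamycin replicate 3 and Ifh1 untreated replicate 4, both in the largest cluster, correlated at 0.37 as deposited and at -0.37 after turning. Within the largest cluster, which holds arrays of all 4 groups, the gene medians averaged 0.11 (2 arrays) for Fhl1 untreated, 0.08 (2) for Fhl1 rapamycin, 0.10 (3) for Ifh1 untreated and 0.09 (2) for Ifh1 rapamycin. The part of the array cluster in the pooled values was not tested.

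As group means the gene medians were 0.06 ± 0.16 (SD, n = 3) for Fhl1 untreated, 0.17 ± 0.21 (n = 5) for Fhl1 rapamycin, 0.19 ± 0.21 (n = 4) for Ifh1 untreated and 0.08 ± 0.04 (n = 3) for Ifh1 rapamycin. Without replicate 1 they were -0.03, 0.08 and 0.10 in the first 3 groups. These group means differed by less than the SD between the arrays of any of the first 3 groups. The medians of the 120 RP promoters were 1.29 ± 0.44, 1.18 ± 0.33 and 0.92 ± 0.03 in the first 3 groups. Their positive sign was set by the turning, which used the 71 large-subunit probes among them, so only their size is informative. Gene medians lay on the RP side on 9 of 12 arrays with an RP shift, and flank medians on 11 of 12.

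**Figure D1:**
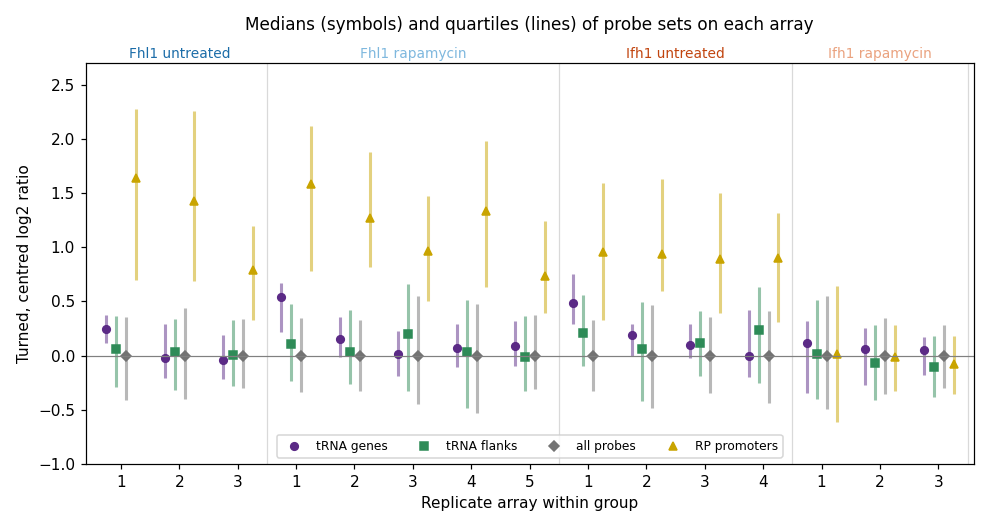
Median (symbol) and lower to upper quartile (line) of tRNA genes, tRNA flanks, all probes and RP promoters on each of the 15 arrays, as turned and centred log2 ratios. tRNA genes stand at 0.54 on Fhl1 rapamycin replicate 1 and 0.48 on Ifh1 untreated replicate 1, and between -0.04 and 0.25 elsewhere. RP promoters, whose large-subunit probes set the sign of the arrays, lie far above on 12 arrays.

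Flank medians differed less between arrays than gene medians in the first 3 groups, and the gene median was above the flank median on 7 of 12 arrays. Their medians were 0.06, 0.04 and 0.002 for Fhl1 untreated (mean 0.03 ± 0.03, n = 3). With Fhl1 and rapamycin they were 0.10, 0.03, 0.20, 0.03 and -0.02 (0.07 ± 0.08, n = 5). With Ifh1 in untreated cells they were 0.21, 0.06, 0.12 and 0.23 (0.15 ± 0.08, n = 4), above 0 on every array. On the Ifh1 rapamycin arrays they were 0.01, -0.07 and -0.11 (-0.06 ± 0.06, n = 3) with the deposited signs. The 227 intergenic probes that are named for a reading frame and end at a tRNA gene on their other side had medians of 0.09 ± 0.06 with Ifh1 untreated and at most 0.0003 in the other groups. All other probes had a median of -0.02 with Ifh1 untreated.

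No tRNA gene or flank was called in any of the 4 groups. limma, fitted to all probes with Benjamini-Hochberg adjustment, called 0 of 292 with Fhl1 untreated, where 0.647% of all probes were called. It called 0 with Fhl1 rapamycin (0.955% of all probes), 0 with Ifh1 untreated (0.323%) and 0 with Ifh1 rapamycin (0%). At an unadjusted p under 0.05 there were 6 members with Fhl1 untreated (2.05%, against 5.07% of all probes), of which 2 were higher (0.685% against 2.84%). There were 18 with Fhl1 rapamycin (6.16% against 6.82%), of which 15 were higher (5.14% against 4.04%). There were 29 with Ifh1 untreated (9.93% against 7.36%), of which 28 were higher (9.59% against 4.26%). With Ifh1 rapamycin and deposited signs there were 12 (4.11% against 3.81%), of which 11 were lower (3.77% against 2%).

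A weak lean to one side was seen with Ifh1 in untreated cells. There, 50 of 291 members with values on all 4 arrays lay above 0 on every array (17.2%, against 7.73% of all probes), 11 of them genes and 39 flanks. Only 2 lay below 0 on every array (0.687%, against 6.71%). With Fhl1 and rapamycin 21 of 292 lay above 0 on all 5 arrays (7.19% against 4.67%) and 3 below (1.03% against 3.41%). With Fhl1 untreated the counts were 37 above (12.7% against 12.1%) and 24 below (8.22% against 12.1%). On the Ifh1 rapamycin arrays, with deposited signs, the counts were 21 above (7.19% against 10.4%) and 45 below (15.4% against 12.4%). Without turning the arrays the Ifh1 untreated count fell to 14 (4.81%, against 7.21% of all probes).

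The single flanks nearest to a call were few and differed between groups. itS(AGA)G, beside a serine tRNA gene on chromosome VII, had values of 0.67, 0.68, 2.21, 1.11 and 0.30 with Fhl1 and rapamycin, all above 0. Its mean was 0.995 ± 0.74 (n = 5, limma adjusted p = 0.0637), against 0.12 ± 0.35 with Fhl1 untreated and -0.08 ± 0.36 with Ifh1 untreated. It was called when Fhl1 rapamycin replicate 5 was left out. itT(AGU)O1, beside a threonine tRNA gene on XV, stood at 1.82, 1.19, 0.32 and 1.38 with Ifh1 untreated (1.18 ± 0.63, n = 4, limma adjusted p = 0.126). Both were named after their values were seen, for having the lowest p of their group.

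Among the gene probes, the highest were those for tyrosine, methionine, arginine, serine and phenylalanine, taking the mean of the Fhl1 untreated, Fhl1 rapamycin and Ifh1 untreated means. tY(GUA)M2, a tyrosine tRNA gene on XIII, had 0.37, 0.70 and 0.64 with Fhl1 untreated. It had -0.02, -0.07, 0.03, 0.57 and 1.11 with Fhl1 rapamycin, and 0.41, 0.27, 0.23 and 0.30 with Ifh1 untreated. All 7 untreated arrays were thus above 0, and their values fell within the range of the Fhl1 rapamycin arrays, -0.07 to 1.11. The probe was picked as the highest of 42 on these same values. Its group means were 0.57 ± 0.17, 0.32 ± 0.51 and 0.30 ± 0.08, and -0.05 ± 0.42 with Ifh1 rapamycin.

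tM(CAU)O2, a methionine tRNA gene on XV, had 0.22, 0.80 and 0.26 with Fhl1 untreated. With Fhl1 rapamycin it had 0.25, 0.31, 0.68, -0.12 and 1.02, and with Ifh1 untreated 0.30, 0.20, 0.25 and 0.56. It lay above 0 on 11 of the 12 arrays, as did tR(CCG)L, the arginine gene on XII described below. At least 11 arrays above 0 was reached by 6 of 291 members (2.06%, against 1.91% of all probes), and 12 of 12 by none (0%, against 1.22%). These shares of all probes include the RP promoters, whose large-subunit probes set the sign of the arrays. At least 11 arrays below 0 was reached by 0 of 291 members (0%, against 0.397% of all probes). The mean of the 3 groups was 0.40 for tY(GUA)M2, 0.39 for tM(CAU)O2, 0.38 for tR(CCG)L, 0.35 for the serine gene tS(GCU)L and 0.34 for the phenylalanine gene tF(GAA)P2. With deposited signs these means were -0.16, -0.19, 0.01, -0.06 and -0.35, so the order holds only for the turned arrays. Neighbours in this order differed by less than the SD between arrays, which was 0.08 to 0.64 for these genes.

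At the low end of the turned values stood 3 glycine genes. They are the only 3 of the 42 gene probes with a turned mean of the 3 groups below 0: tG(CCC)D on IV at -0.08, tG(UCC)O on XV at -0.02 and tG(GCC)P2 on XVI at -0.01. With deposited signs they stood at -0.20, 0.13 and -0.02, and tF(GAA)P2 was lower than all 3. For each of these glycine genes the SD between arrays of a group (0.08 to 0.81) was larger than the distance of its turned mean from 0. tG(CCC)D varied widely, with -0.13, -0.18 and 1.07 on the Fhl1 untreated arrays. It had 0.07, -0.49, 0.70, 0.01 and -1.28 with Fhl1 rapamycin, and -0.07, -0.09, 0.04 and -1.07 with Ifh1 untreated. tG(GCC)P2 was highest on replicate 1 arrays, with 1.38 on Fhl1 rapamycin replicate 1 and 0.79 on Ifh1 untreated replicate 1 against -0.80 to 0.23 on the other arrays of these groups. tA(UGC)O, an alanine gene on XV (0.003), and tQ(UUG)L, a glutamine gene on XII (0.01), completed the lowest 5. No gene probe was further than 0.40 from 0 in its mean, and the whole set of 42 had a median of 0.16 with 39 above 0. All probes of the array had a median of -0.01 on the same measure, with 47.2% above 0. The replicate 1 arrays enter these means. Without them the group means of the gene medians were -0.03 for Fhl1 untreated, 0.08 for Fhl1 rapamycin and 0.10 for Ifh1 untreated. With deposited signs and all replicates they were 0.10, -0.08 and -0.10.

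**Figure D2:**
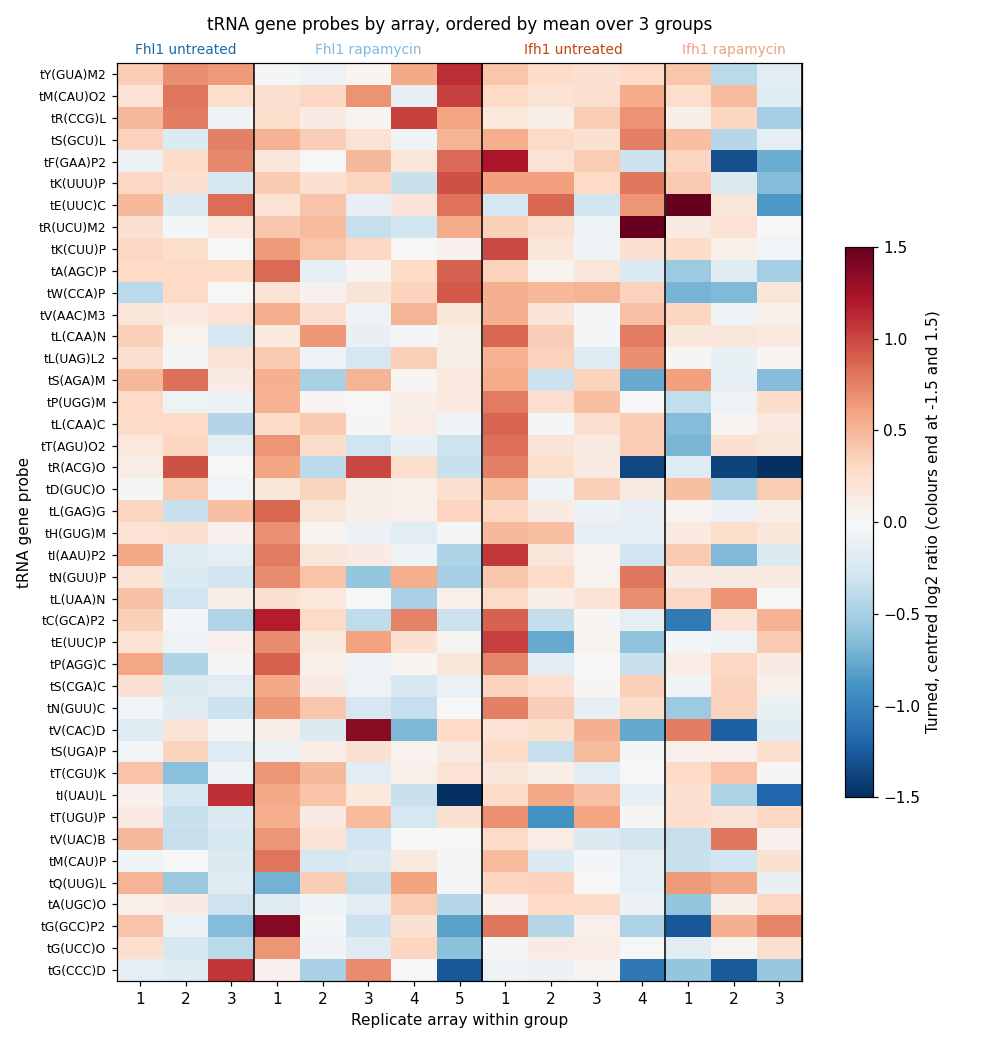
Turned and centred log2 ratios of the 42 tRNA gene probes (rows, ordered by the mean over 3 groups) on the 15 arrays (columns, grouped by condition). Red is above the array median and blue below. Columns of Fhl1 rapamycin replicate 1 and Ifh1 untreated replicate 1 are mostly red, and no row is red on all 12 arrays of the first 3 groups.

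The order of single tRNA genes was shared by few pairs of arrays. Within groups, the median correlation between pairs of arrays over the 42 genes was -0.14 for Fhl1 untreated (3 pairs), -0.05 for Fhl1 rapamycin (10 pairs), -0.12 for Ifh1 untreated (6 pairs) and -0.08 for Ifh1 rapamycin (3 pairs). Single pairs reached 0.38 for Ifh1 untreated and 0.51 for Ifh1 rapamycin, and over the 66 pairs of the 12 arrays with an RP shift the values ran from -0.50 to 0.67. Over the 250 flanks the median was -0.13, 0.03, 0.03 and -0.04. The same measure over the 120 RP promoters, by whose large-subunit probes the arrays were turned, was 0.60, 0.53, 0.32 and -0.12. These are correlations across probes of arrays that share the array design, and probes are not independent replicates.

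Gene probes were much less scattered than flanks. The range between the lower and upper quartile was narrower for genes than for flanks on 15 of 15 arrays, at 0.26 to 0.66 against 0.57 to 1.00. All probes had quartile ranges of 0.58 to 1.04, and flanks lay under them on 10 of 15 arrays. Probe length and spot brightness, which could bear on scatter, are not given in the file, and their part was not tested. Copies of a tRNA gene are nearly identical in sequence, so a gene probe may also capture other copies of its family, which the ratios cannot tell apart.

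Genes were compared with the flank of the same name where both were on the array, which held for 33 of the 42 genes. The median difference, gene minus flank, was 0.18, -0.05 and -0.03 on the Fhl1 untreated arrays (mean 0.03 ± 0.13). It was 0.45, -0.06, 0.19, -0.12 and 0.05 with Fhl1 rapamycin (0.10 ± 0.23) and 0.13, 0.13, 0.08 and -0.26 with Ifh1 untreated (0.02 ± 0.19). On the Ifh1 rapamycin arrays it was 0.19, -0.06 and -0.07 (0.02 ± 0.15). Both signs occurred in every group, and each mean was smaller than its SD. Over the means of 3 groups, 22 of the 33 genes lay above their flank, with a median difference of 0.07. Across these 33 names the gene and flank means had r = 0.46 and rho = 0.43; both probes of a name were measured on the same arrays.

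A tRNA region split over a pair of flank probes showed how far neighbouring regions go together. Of the 252 names, 7 had such a pair. The correlation of the pair over the 15 arrays was 0.73 for tE(CUC)D, a glutamate gene on IV, 0.46 for tS(UGA)E and 0.41 for tW(CCA)K. For the other 4 names it lay between -0.34 and 0.03. The parts of tE(CUC)D had means of -0.08 and -0.39, and those of tW(CCA)K 0.001 and -0.44.

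By amino acid, flank medians ran from -0.05 to 0.20 while the SD within amino acids was 0.20. Flanks of tyrosine genes were highest (median 0.20, 7 of 8 above 0), followed by histidine (0.17, 5 of 6) and arginine (0.14, 13 of 16). Those of valine (-0.05, 9 of 19 above 0), tryptophan (-0.05, 2 of 6) and asparagine (-0.04, 4 of 10) were lowest. For gene probes, with at most 5 per amino acid, the medians ran from -0.02 for glycine (3 probes) to 0.40 for tyrosine (1 probe), with an SD within amino acids of 0.11. Tyrosine was highest and glycine among the lower families in both kinds (10 of 19 glycine flanks above 0).

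The order of amino acids was not the same in the 4 groups. Tyrosine flanks had medians of group means of 0.15 with Fhl1 untreated, 0.16 with Fhl1 rapamycin, 0.27 with Ifh1 untreated and 0.06 with Ifh1 rapamycin. Threonine flanks (15 probes) stood at 0.05, 0.17, 0.42 and 0.01, and tryptophan flanks (6 probes) at -0.49, -0.04, 0.27 and 0.27. The threonine value with Ifh1 untreated was the highest of any amino acid in that group.

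**Figure D3:**
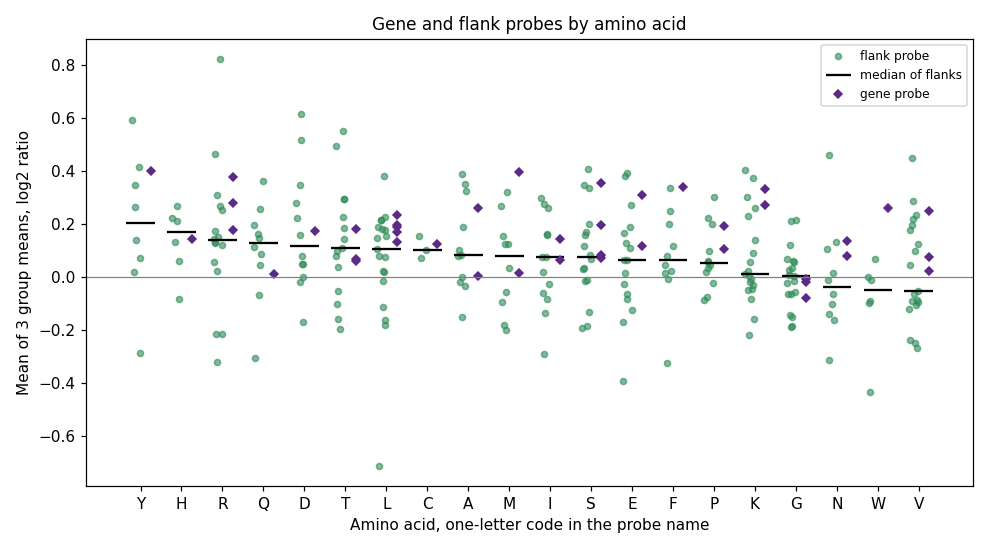
Mean of the Fhl1 untreated, Fhl1 rapamycin and Ifh1 untreated group means for each flank (circles, with their median as a bar) and each gene probe (diamonds), by amino acid. Medians of flanks run from -0.05 for valine to 0.20 for tyrosine, beside an SD within amino acids of 0.20, and 1 arginine flank stands alone at 0.82.

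Methionine tRNA genes serve both the start of translation and elongation, with the same anticodon, and the array names do not tell initiator from elongator genes. The 10 methionine flanks had means of 3 groups between -0.20 (itM(CAU)J1) and 0.32 (itM(CAU)J2), with 6 above 0. itM(CAU)J2 stood at 0.84, 1.28, 0.09 and 1.22 with Ifh1 untreated (0.86 ± 0.55, limma adjusted p = 0.302), and at 0.06 ± 0.09 with Fhl1 untreated. The gene probe tM(CAU)P on XVI, with a mean of 0.01, was above 0 on 4 of 12 arrays, unlike tM(CAU)O2.

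By chromosome, flanks on XII were highest over the mean of 3 groups, with a median of 0.20 and 17 of 19 above 0. On the other 15 chromosomes flank medians lay between -0.02 and 0.14, and the SD within chromosomes was 0.19. With Ifh1 untreated the XII flanks had a median of 0.39, with Fhl1 untreated 0.20, with Fhl1 rapamycin 0.16 and with Ifh1 rapamycin -0.11. Other chromosomes were higher in single groups, with 0.49 for the 8 flanks on VIII with Ifh1 untreated and 0.32 for the 9 on IX with Fhl1 rapamycin. The 5 gene probes on XII had a median of 0.20, close to the 0.22 of the 6 on XIII.

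With the arrays turned, the highest of all 292 members was itR(CCG)L, a flank on XII. Its mean of 3 groups was 0.82, and -0.12 with deposited signs. In RefSeq's table, 1 of the 275 nuclear tRNA genes has an RP gene that starts next to it on the higher-coordinate side, which is the side a flank covers if flanks are named as the intergenic probes of reading frames are. That tRNA gene is TRR4 on XII, and the RP gene is RPL26A, which encodes a protein of the large ribosomal subunit. A second such case, on the lower-coordinate side, is a tRNA gene on XII beside RPS25B, where the probe between them is named for a reading frame and counted among the RP promoters. The table does not pair TRR4 with an anticodon. In standard yeast nomenclature TRR4 is the arginine tRNA gene with anticodon CCG, and tR(CCG)L is the only name with that anticodon on the array.

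itR(CCG)L had values of 1.31, 2.15 and -2.16 with Fhl1 untreated (0.43 ± 2.28, n = 3, limma adjusted p = 0.999). With Fhl1 rapamycin it had 1.75, 1.58, 1.33, 0.79 and 0.63, all above 0 (1.22 ± 0.49, n = 5, limma adjusted p = 0.447). With Ifh1 untreated it had 1.66, -0.30, 1.04 and 0.88 (0.82 ± 0.82, n = 4). On the Ifh1 rapamycin arrays, with deposited signs, it had -0.37, 0.11 and 0 (-0.08 ± 0.25, n = 3). All 3 lay near the array median, where the RP promoters as a set also lay. Whether the start of RPL26A bears on the values of this flank was not tested. itR(CCG)L was above 0 on 10 of 12 arrays with an RP shift. It ranked first of the 19 flanks on XII on 5 of them, and among the 10 highest of 250 flanks on 6.

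Fhl1 untreated replicate 3 stood apart for this probe, at -2.16, the lowest of the 19 on XII, on an array whose RP promoters had a median of 0.79. Over the means of 3 groups (0.82), 79 of the 120 RP promoters were higher than itR(CCG)L, as were 8 probes that are not RP promoters. The gene probe beside it, tR(CCG)L, ranked 3 among the genes, with 0.49, 0.77 and -0.05 with Fhl1 untreated, 0.26, 0.13, 0.04, 1.02 and 0.59 with Fhl1 rapamycin, and 0.16, 0.08, 0.37 and 0.68 with Ifh1 untreated. It was lower than its flank on the average of 3 groups by 0.44, the largest such gap among the 33 pairs.

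**Figure D4:**
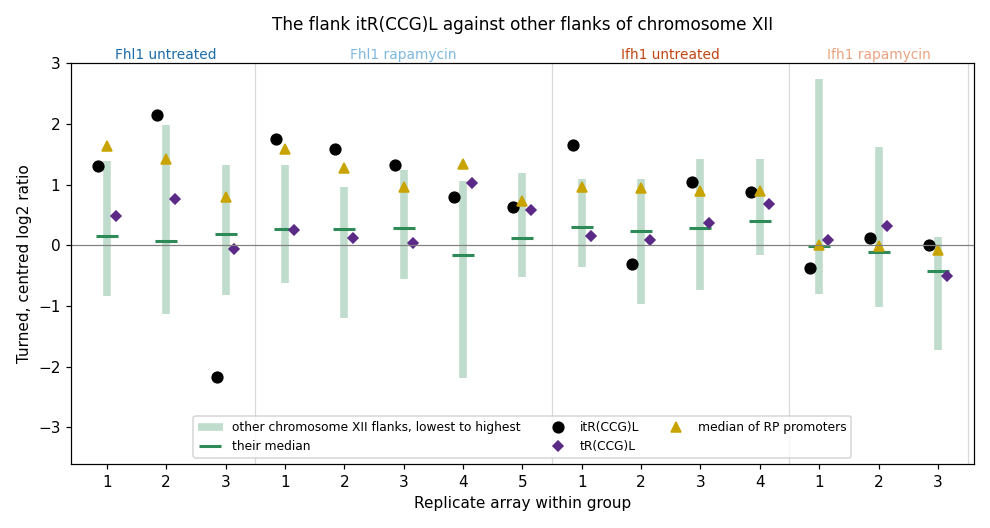
Turned and centred log2 ratio of the flank itR(CCG)L (black circles) and its gene probe tR(CCG)L (diamonds) on the 15 arrays, with the range (bars) and median (ticks) of the other 18 flanks of chromosome XII and the median of RP promoters (triangles). The flank lies near or above the RP median on most arrays of the first 3 groups, at -2.16 on Fhl1 untreated replicate 3, and near 0 on the Ifh1 rapamycin arrays.

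The next highest flanks had no such neighbour that could be named. itD(GUC)L2, beside an aspartate gene on XII, was above 0 on 11 of 12 arrays, with means of 0.66 ± 0.88, 0.56 ± 0.30 and 0.62 ± 0.34, and at -0.35 ± 0.14 with Ifh1 rapamycin. itT(UGU)G1, beside a threonine gene on VII, was also above 0 on 11 of 12 (0.23 ± 0.44, 0.76 ± 0.36 and 0.67 ± 0.38), and stood at 0.56 ± 0.67 with Ifh1 rapamycin. itY(GUA)F2, beside a tyrosine gene on VI (0.59 over 3 groups), and itD(GUC)B, beside an aspartate gene on II (0.52), followed with wider spread. With deposited signs the means of these 4 flanks were 0.04, -0.04, -0.31 and 0.16. The lowest flank was itL(UAA)J, beside a leucine gene on X, at -0.71, with -4.23 on Ifh1 untreated replicate 4. Above it came itW(CCA)K-1 (-0.44), itE(CUC)D-1 (-0.39), itF(GAA)F (-0.33) and itR(ACG)D-1 (-0.32).

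No tRNA probe passed the test for a difference with rapamycin in cells with tagged Fhl1. limma called 0 of 292 members for Fhl1 rapamycin minus untreated (0% of all probes were called), and 5 had an unadjusted p under 0.05 (1.71%, against 3.41% of all probes). The median difference was 0.09 over the genes and 0.05 over the flanks, against 0.01 over all probes. The lowest p were those of itG(GCC)P2, beside a glycine gene on XVI, itN(GUU)G, beside an asparagine gene on VII, and itM(CAU)O2. itG(GCC)P2 had 0.10, 0.97 and 1.02 untreated and -1.18, -0.18, -0.55, -0.58 and -0.55 with the drug, which do not overlap (difference -1.30, SE 0.45, limma adjusted p = 0.999). Arrays did not overlap for 2 members that were higher (0.685%, against 1.44% of all probes) and 2 that were lower (0.685% against 1.21%).

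For Ifh1, no tRNA probe passed either. limma called 0 of 292 for Ifh1 rapamycin minus untreated (0% of all probes), with 20 at an unadjusted p under 0.05, all lower with the drug (6.85%, against 3.38% of all probes lower and 5.47% in either direction). The median difference was -0.22 over genes and -0.14 over flanks, against 0.02 over all probes. itR(UCU)K, beside an arginine gene on XI, had 1.72, 0.15, 0.74 and 0.35 untreated and -1.67, -1.65 and -0.98 with rapamycin, with no overlap (difference -2.17, SE 0.48, limma adjusted p = 0.228). Arrays did not overlap for 20 members that were lower (6.87%, against 3.39% of all probes) and 0 that were higher (0%, against 2.34%).

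The direction of these values hangs on the unsettled sign of the 3 Ifh1 rapamycin arrays. Over the 8 patterns of their signs, the number of the 292 members at an unadjusted p under 0.05 ran from 10 to 26, against 4.38% to 7.54% of all probes. Those lower with the drug ran from 7 to 24, against 2.56% to 4.62% of all probes lower, and at the pattern with 7 the share of all probes was 3.15%. The number called was 0 under each pattern, where at most 1 probe of the array was called. itR(UCU)K took the same sign on all 3 rapamycin arrays as deposited, and the labels do not say whether these arrays share a dye orientation.

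Between the proteins, no tRNA probe differed past the threshold. For Ifh1 minus Fhl1 in untreated cells limma called 0 of 292 members (0% of all probes), with 10 at an unadjusted p under 0.05 (3.42% against 4.16%), and the median difference was 0.11 over genes and 0.08 over flanks. The lowest p was that of itM(CAU)O2, with -0.95, -1.35 and -0.58 for Fhl1 and 1.91, -0.54, 0.87 and 0.72 for Ifh1 (limma adjusted p = 0.997). Arrays did not overlap for 11 members higher with Ifh1 (3.78%, against 2.46% of all probes) and 2 lower (0.687% against 2.63%). With rapamycin limma called 0 members for Ifh1 minus Fhl1 (0.176% of all probes), with 17 at an unadjusted p under 0.05 (5.82% against 5.56%), of which 15 were lower with Ifh1 (5.14% against 3.25%). The median difference was -0.18 over genes and -0.14 over flanks, with the deposited signs of the Ifh1 arrays. The lowest p there was that of itN(GUU)N2, beside an asparagine gene on XIV (0.53 ± 0.34 for Fhl1 and -0.65 ± 0.21 for Ifh1, limma adjusted p = 0.248). Arrays did not overlap there for 10 members lower with Ifh1 (3.42%, against 2.54% of all probes) and 1 higher (0.342% against 1.84%). The test whether the drug change differs between the proteins called 0 members (0% of all probes), with 11 at an unadjusted p under 0.05 (3.77% against 4.19%), all of them lower (against 2.38% of all probes lower). Among its lowest p were those of itR(UCU)G3 and the tryptophan gene tW(CCA)P, and neither passed (limma adjusted p = 1.00). The drug comparisons and the comparisons between proteins share arrays. Counts that use the Ifh1 rapamycin arrays are given for deposited signs, which are unsettled. Over the 8 sign patterns, members lower for Ifh1 minus Fhl1 with rapamycin ran from 3 to 15 of 292, against 2.7% to 4.98% of all probes. For the difference in drug change they ran from 4 to 16, against 2.00% to 3.13% of all probes.

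The promoters of the RNA polymerase III machinery were not called either. The list for polymerase subunits, TFIIIA, TFIIIB, TFIIIC, Maf1 and the La protein held 30 names, with TFIIIA under both TFC2 and PZF1. It matched 29 RefSeq genes, and 26 probes faced the start of at least 1 of them. limma called 0 of the 26 in all 9 comparisons. Their medians were 0.04 with Fhl1 untreated, 0.04 with Fhl1 rapamycin, -0.03 with Ifh1 untreated and 0.05 with Ifh1 rapamycin, against medians of all probes between -0.02 and 0.01. The probe with the lowest p lies between PZF1, which encodes TFIIIA, and RPO26, a subunit shared by the 3 nuclear RNA polymerases. It stood at 0.70 ± 0.46 with Fhl1 untreated (limma adjusted p = 0.501), 0.43 ± 0.25 with Fhl1 rapamycin and -0.38 ± 0.14 with Ifh1 untreated. RPC25, a polymerase III subunit, stood at -0.98 ± 0.42 with Ifh1 untreated (limma adjusted p = 0.613), and TFC7, a TFIIIC subunit, at 0.78 ± 0.49 with Ifh1 rapamycin (not called).

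Genes for the enzymes that charge tRNAs gave the same count. All 21 aminoacyl-tRNA synthetase genes matched, 18 probes faced their starts, and limma called 0 of 18 in all 9 comparisons. The medians were -0.02 with Fhl1 untreated, 0.08 with Fhl1 rapamycin, 0.10 with Ifh1 untreated and -0.01 with Ifh1 rapamycin. KRS1, the lysine enzyme, stood at -0.79 ± 0.67 with Fhl1 untreated (limma adjusted p = 0.811), THS1, the threonine enzyme, at 0.72 ± 0.58 with Ifh1 untreated (limma adjusted p = 0.621), and GRS1, the glycine enzyme, at -0.87 ± 1.49 with Ifh1 rapamycin.

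Other genes that RNA polymerase III transcribes were represented by 10 probes, and none was called in any group. SNR6, which encodes the U6 spliceosomal RNA, stood at -0.05 ± 0.05 with Fhl1 untreated, 0.57 ± 0.83 with Fhl1 rapamycin and -0.16 ± 0.59 with Ifh1 untreated. The region beside SCR1, the RNA of the signal recognition particle, stood at 0.31 ± 0.63, 0.54 ± 0.77 and 0.17 ± 0.60 in the same groups. RDN5-1, a 5S ribosomal RNA gene, stood at -0.18 ± 0.40, -0.09 ± 0.51 and -0.26 ± 0.42. The region beside SNR6 stood at -0.23 ± 0.71 with Fhl1 untreated, 0.45 ± 0.52 with Fhl1 rapamycin, -0.80 ± 0.46 with Ifh1 untreated and -0.76 ± 0.40 with Ifh1 rapamycin. It was below 0 on every Ifh1 untreated array as turned, as were 6.71% of all probes. It was also below 0 on every Ifh1 rapamycin array with deposited signs, which are unsettled, as were 12.4% of all probes. Its limma adjusted p of 0.424 was the lowest of the 10. The region named for RDN5-3 (iRDN5-3) stood at -0.37 ± 0.17 with Fhl1 untreated and -0.45 ± 0.51 with Fhl1 rapamycin. These probes were picked out after their values were seen.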

How the data were processed

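Each array compared an anti-myc chromatin precipitate from a tagged strain with one from the untagged strain, amplified by ligation-mediated PCR and labelled with Cy3 and Cy5, per the labels' protocols. The authors deposited 1 log2 ratio per probe and array. The labels do not state the background correction, the normalisation or which channel is the numerator. The deposited array medians ran from -1.31 to 1.74, so the values were not centred. Spot intensities were not used here.

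Each array was centred on its median and turned by the large-subunit RP promoters, unless their median was within 0.3 of 0. Group means and 5 contrasts were fitted with limma 3.58.1 in R 4.3.3 (lmFit, eBayes) to all 6803 probes and 15 arrays, with 4 group means. P-values were Benjamini-Hochberg adjusted over all probes, with a threshold of 0.05. The fit was tested on simulated data. For 1 flank, a missing value on Ifh1 untreated replicate 4 was left out of the fit. Arrays were put into 3 clusters by average linkage on the correlation, with deposited signs, of 6391 probes that are neither tRNA nor RP probes.

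Intergenic probes lie on the higher-coordinate side of the feature they are named for. Of reading frames with a gap on that side alone 86.7% had a probe, and of those with a gap on the lower side alone 2.27% had one. The same side was assumed for tRNA flanks. Gene names came from RefSeq's table of assembly R64, which pairs no tRNA gene with an anticodon.

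The probes named are the 5 highest and 5 lowest genes and flanks by the mean of 3 groups, the 3 lowest p of each contrast, flanks facing an RP gene, methionine probes, the extreme amino acids, and 3 genes of each gene list. A few of these probes are not reported here. A few others are said to be chosen after their values were seen. The members and lists were chosen with earlier results of these data known. Alternatives were the deposited signs, no centring, scaling by the median absolute deviation, fits to the compared arrays alone, replicate or cluster blocks, the 8 sign patterns and leaving out each replicate.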

Additional observations from a re-analysis of the deposited data

Results flagged for a closer look

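Of 88 groups of 4 or 5 arrays examined, 7 held 1 array whose gap to the others passed Dixon's 95% limit. Chance passes about 1 in 20 where values are not picked by their size. The single probes below were named for their mean or p on these same arrays, so that rate is no yardstick for them. The median of the tRNA gene probes was 0.54 on Fhl1 rapamycin replicate 1, against 0.01 to 0.15 on the other 4 arrays. The median difference between a gene and its flank was -0.26 on Ifh1 untreated replicate 4, against 0.08 to 0.13 on the others.

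The other 5 were single probes. The tryptophan flank itW(CCA)K-1 was 0.80 on Fhl1 rapamycin replicate 4, with the others between -0.23 and -0.02. The aspartate flank itD(GUC)B was 1.65 on Ifh1 untreated replicate 2, with the others between -0.09 and 0.09. The glycine flank itG(GCC)P2 was 2.07 on Ifh1 untreated replicate 1, with the others between -0.07 and 0.22. On Ifh1 untreated replicate 4 the tyrosine flank itY(GUA)F2 was -0.79, with the others between 0.77 and 1.06. On the same array the glycine gene tG(CCC)D was -1.07, with the others between -0.09 and 0.04.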

How the results depend on the processing

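Of 134 alternative fits, 96 called no probe of the array, among them all with deposited signs or without centring, and so say nothing about the tRNA probes. In the other 38, tRNA probes called numbered 0 except without Fhl1 rapamycin replicate 5, where 1, itS(AGA)G, was called (range 0 to 1). With deposited signs the gene median was -0.083 for Fhl1 rapamycin and -0.097 for Ifh1 untreated, the flank medians were -0.044 and -0.0070, and gene minus flank was -0.17 for Fhl1 rapamycin. Members above 0 on every array then numbered 10 for Fhl1 rapamycin (3.42%, against 3.89% of all probes) and 14 for Ifh1 untreated (4.81% against 7.21%); these counts were added after seeing the data. Leaving out 1 replicate gave 25 to 40 members for Fhl1 rapamycin (8.56% to 13.7%, against 6.82% to 7.84% of all probes). For Ifh1 untreated it gave 62 to 79 members (21.3% to 27.15%, against 12.7% to 14.9% of all probes). Fewer arrays must then pass. The signs rest on RP promoters alone, so positive medians of the tRNA probes hold only if the tagged channel is the one in which RP promoters are high.

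With the replicate number as a block 0 members were called in each of the 5 contrasts, and 0 with the array cluster as a block. The deviations of same-numbered arrays from their group means correlated at -0.34 to 0.27 (19 pairs, median 0.02), so the numbers were not taken to pair them, although replicate 1 had the highest tRNA gene median in all 4 groups. The SE of a member's difference had medians of 0.40 to 0.57 over the contrasts, which bounds what these arrays can resolve.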
